A study of Mus musculus with 12 samples.

Results

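Kruppel-like factors are DNA-binding proteins with zinc fingers at their carboxy terminus, and 10 of their genes were followed here across drug treatments of mice with a leukaemia-causing mutation. The genes are Klf2, Klf3, Klf4, Klf6, Klf7, Klf9, Klf10, Klf11, Klf13 and Klf16, each taken by its symbol from a table of read counts with 56350 genes. Klf1, the factor that drives haemoglobin genes in red cell precursors, was set apart by that choice. All 10 genes passed a filter on low counts that left 17475 genes for testing, and their counts per library ran from 183 for Klf9 to 13463 for Klf2. The table holds 17 Klf genes in all. In marrow of mice given both drugs, Klf2 and Klf6 were lower than in every mouse of the other 3 groups, Klf4 was lower and Klf9 higher than with vehicle, and the other 6 genes did not pass the test in any comparison. Among all genes tested, 7.97% were called lower and 5.78% higher with both drugs than with vehicle. The share of all genes whose groups did not overlap is not given here. With sex read from Xist in the model, 0 of these 4 Klf genes passed against vehicle (edgeR adjusted p = 0.0638 for Klf2, 0.0578 for Klf6, 0.498 for Klf4 and 0.464 for Klf9). In that model 0 of all 17475 genes passed, against 2403 without the sex term. Leaving out 1 mouse at a time, the Klf4 call against vehicle held in 5 of 12 fits and the Klf9 call in 7.

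RNA came from bone marrow cells of 12 C57BL/6 mice, 12 to 14 weeks old, 1 library per mouse. Every mouse was Shp2E76K/+;LysM-Cre+, which means that a hyperactive form of the phosphatase Shp2 (gene Ptpn11) was switched on by Cre made from the Lyz2 locus, active in monocytes, macrophages and granulocytes. The mice model juvenile myelomonocytic leukaemia, a childhood disease of overactive Ras signalling, and the vehicle controls carry the mutation too. Groups of 3 mice received vehicle, the MEK inhibitor PD0325901 (PD-901; 5 mg/kg by mouth, 20 doses over 4 weeks), the DNA-methylation inhibitor 5-azacitidine (5 mg/kg into the abdomen, 5 doses over 4 weeks), or both drugs, called the combination. No wild-type mice were compared, and the sources used here do not give the time from the last dose to harvest.

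Each Kruppel-like factor binds GC boxes and CACCC boxes in promoters, and the family falls into groups by the partners its members bring along. KLF2, KLF4, KLF6 and KLF7 are mostly activators: KLF2 keeps lymphocytes and endothelial cells quiescent, KLF4 takes part in the making of monocytes, and KLF2 and KLF6 are widely known as quickly induced genes. KLF3 recruits the repressor CtBP, whereas KLF9, KLF10, KLF11, KLF13 and KLF16 recruit the repressor Sin3A. The ERK5 kinase, through MEF2 factors, is a known inducer of Klf2 and Klf4, and glucocorticoids are known to induce Klf9.

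The promoters of Klf2, Klf4, Klf6 and Klf9 are shown because these are the 4 genes that differed between the combination and vehicle. Each runs from 250 bases before to 50 bases after the gene's start and was taken from RefSeq (GRCm38.p6), which holds this window for 8 of the 10 genes. On build mm10 the genes lie at chr8:72319033-72321656 (Klf2), chr4:55527143-55532466 (Klf4), chr13:5861482-5870394 (Klf6) and chr19:23141226-23168134 (Klf9), Klf4 on the minus strand and the others on the plus strand, and all 4 encode proteins. The Klf2 window is chr8:72318812-72319111 on the plus strand, and that of Klf4 is chr4:55532426-55532725 on the minus strand. The Klf6 window is chr13:5861239-5861538 and the Klf9 window is chr19:23140976-23141275, both on the plus strand. Capitals mark the GC box, written GGGCGG, and sites of the MEF2 kind. They also mark the CACCC box and the box spelled CCAAT. All were searched on both strands, so that a box on the other strand shows as its reverse complement, and some boxes overlap.
Klf2: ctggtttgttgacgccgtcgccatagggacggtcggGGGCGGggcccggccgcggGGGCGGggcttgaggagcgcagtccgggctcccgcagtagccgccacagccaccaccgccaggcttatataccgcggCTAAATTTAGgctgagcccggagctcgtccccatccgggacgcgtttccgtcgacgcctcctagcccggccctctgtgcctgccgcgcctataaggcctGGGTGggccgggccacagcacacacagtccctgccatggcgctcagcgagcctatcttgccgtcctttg
Klf4: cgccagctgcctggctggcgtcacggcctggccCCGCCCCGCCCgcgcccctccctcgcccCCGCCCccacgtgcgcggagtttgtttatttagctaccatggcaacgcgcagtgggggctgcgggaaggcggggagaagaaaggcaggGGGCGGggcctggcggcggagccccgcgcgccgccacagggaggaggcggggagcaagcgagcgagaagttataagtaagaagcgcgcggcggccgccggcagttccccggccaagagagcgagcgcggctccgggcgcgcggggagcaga
Klf6: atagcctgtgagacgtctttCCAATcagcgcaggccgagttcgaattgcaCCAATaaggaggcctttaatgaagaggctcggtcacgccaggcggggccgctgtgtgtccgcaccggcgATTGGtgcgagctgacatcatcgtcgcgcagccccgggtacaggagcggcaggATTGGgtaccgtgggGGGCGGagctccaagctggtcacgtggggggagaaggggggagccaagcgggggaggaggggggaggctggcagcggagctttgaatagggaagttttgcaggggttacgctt
Klf9: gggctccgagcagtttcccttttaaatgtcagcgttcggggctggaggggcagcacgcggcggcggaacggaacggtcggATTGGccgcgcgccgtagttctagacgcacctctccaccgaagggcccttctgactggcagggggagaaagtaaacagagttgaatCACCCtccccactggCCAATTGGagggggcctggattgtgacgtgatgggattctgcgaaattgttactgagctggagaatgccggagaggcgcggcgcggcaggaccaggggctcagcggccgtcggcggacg

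The Klf2 window held 2 GC boxes, 1 CACCC box and a MEF2 site that begins 118 bases before the start. Windows with a MEF2 site make up 3.19% of all 32851 promoters in the RefSeq table, those with a GC box 35.7%, with a CACCC box 57.5% and with a CCAAT box 37.4%. The Klf4 window held 4 GC boxes, and the Klf6 window held 1 GC box and 4 CCAAT boxes. The Klf9 window had no GC box but had 1 CACCC box and 3 CCAAT boxes. The MYC-type E-box CACGTG, in lower case above, was found once in the Klf4 window and once in the Klf6 window (7.15% of all promoters), and the FOXO motif GTAAACA once in the Klf9 window (3.65%). None of these 4 windows held an AP-1 motif (TGACTCA, 5.20% of promoters), a full cAMP response element (TGACGTCA, 1.79%), TATAAA (13.6%) or a CArG box (1.63%). The first 5 bases of that response element, TGACG (20.8% of promoters), were found once each in the Klf2, Klf4 and Klf9 windows. The 8 windows held 16 to 42 CpG dinucleotides, the sequence at which DNA methylation acts, with a median of 30.5, against a median of 7 and an upper quartile of 20 over all promoters. In 7 of the 8 the number was above that upper quartile, and Klf7 with 16 was below it. DNA methylation itself was not measured in the files analysed here.

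Per length, Klf2 was the most abundant of the 10 in vehicle mice, at 160.1 ± 49.5 RPKM (SD, n = 3). RPKM is CPM, the count scaled by the size of the library, divided by the gene's length in kilobases. Klf6 followed at 59.2 ± 4.39 RPKM, then Klf13 at 38.0 ± 5.41 and Klf4 at 34.4 ± 10.2. The ranges of Klf13 and Klf4 overlapped in vehicle mice, so their order is not settled. Klf10 at 14.9 ± 2.11, Klf16 at 13.3 ± 2.04 and Klf3 at 11.4 ± 0.149 RPKM formed a middle group, and Klf11 at 5.87 ± 0.387, Klf7 at 3.38 ± 0.328 and Klf9 at 2.68 ± 0.474 RPKM were the lowest. Over the 12 mice the highest value was 9.15 times the lowest for Klf2, 3.68 times for Klf7, 3.57 times for Klf4 and 2.91 times for Klf6. For Klf3 it was 1.54 times, for Klf13 1.62 times and for Klf11 1.65 times, less than the median of 1.88 times over the 10424 tested genes with a mean of at least 5 CPM.

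**Figure D1:**
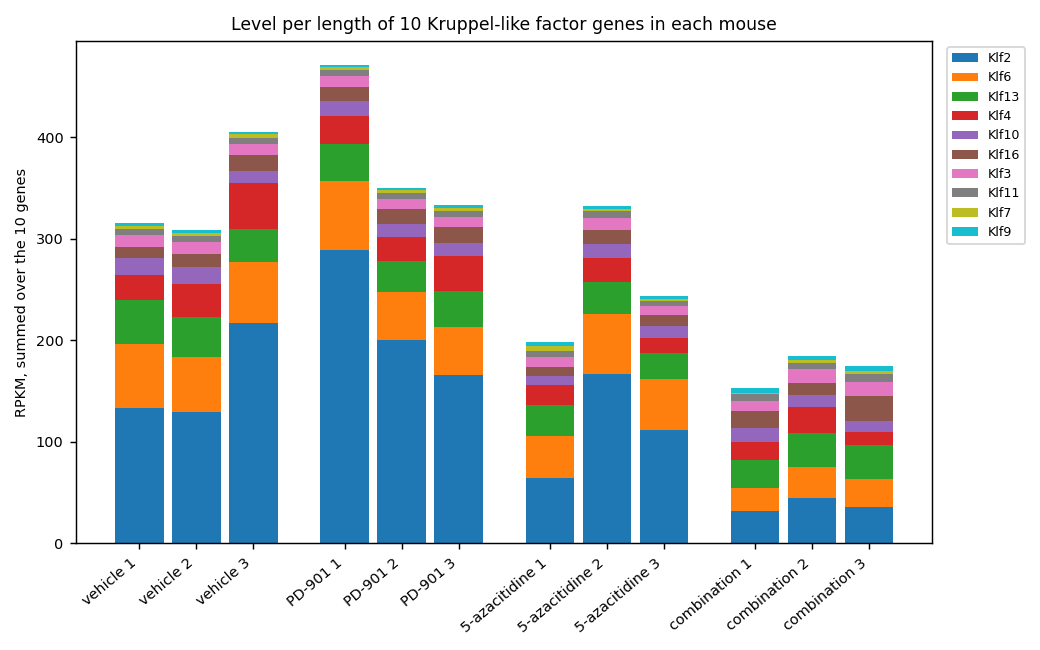
RPKM of the 10 genes stacked for each of the 12 mice (x axis: mouse; y axis: RPKM summed over the genes; colour: gene). The stack of every combination mouse, at 152.8 to 184.7 RPKM, is below that of every other mouse, and the Klf2 segment is the one that differs most.

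Summed over the 10 genes, the level per length was 343 ± 53.8 RPKM in vehicle mice, 385 ± 75.5 with PD-901, 258 ± 67.8 with 5-azacitidine and 170.7 ± 16.3 with the combination. Klf2 held 46.0% ± 6.63 of that sum in vehicle mice and 21.8% ± 2.25 in combination mice. Klf13 held 11.4% ± 3.03 in vehicle mice and 18.2% ± 0.545 in combination mice. Its own level did not rise, at 38.0 ± 5.41 RPKM in vehicle and 31.1 ± 3.36 RPKM in combination mice, so the larger share reflects the smaller sum. After the combination the share of Klf2 ranged from 20.4% to 24.4% and that of Klf13 from 17.8% to 18.9%.

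Properties of the libraries that touch these results are as follows. Total counts ran from 15356919 to 27148190. Ptpn11 was at 120.4 to 163 CPM over the 12 mice, and counts per gene do not show the point mutation. Markers of mature neutrophils, the main cells of marrow, summed to 16621 to 33506 CPM in vehicle mice. Lyz2, the locus that carries Cre, was at 44.9 to 172 CPM in vehicle mice 1 and 2 and combination mice 1 and 2, against 699.6 to 4182 CPM in the other 8. Xist, which is made from the inactive X chromosome of females, was above 100 CPM in 3 of 3 vehicle mice, 2 of 3 PD-901 mice (not mouse 1), 1 of 3 5-azacitidine mice (mouse 2) and 0 of 3 combination mice. The labels give both sexes without saying which mouse is which, so sex and treatment cannot be told apart between the combination and vehicle.

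Klf2 read 247, 239 and 401 CPM in vehicle mice 1 to 3, 534, 370.4 and 305 CPM with PD-901, 119, 308 and 206 CPM with 5-azacitidine, and 58.4, 83.3 and 65.7 CPM with the combination. Every combination mouse was below every other mouse, whereas the other 3 groups overlapped with each other, with 2 of the 5-azacitidine mice below all vehicle mice. Klf2 fell 4.28-fold from vehicle to the combination, a log2 change of -2.10 ± 0.32 (SE; edgeR quasi-likelihood test, Benjamini-Hochberg adjusted p = 0.00322). Klf2 was also 5.84-fold lower in the combination than with PD-901 alone (log2 change -2.55 ± 0.33, edgeR adjusted p = 0.00207) and 3.05-fold lower than with 5-azacitidine alone (-1.61 ± 0.32, adjusted p = 0.0336). In bulk marrow, fewer cells that express a gene and less RNA per cell cannot be told apart, for Klf2 and for every gene below.

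Klf6, an activator also known as a tumour suppressor, read 277, 239 and 263 CPM in vehicle mice and 297, 207 and 212 CPM with PD-901. With 5-azacitidine it read 182, 260.2 and 220.1 CPM, and with the combination 102, 134 and 124 CPM. As with Klf2, all 3 combination mice were below the other 9, and the remaining groups overlapped. Klf6 fell 2.16-fold from vehicle to the combination (log2 change -1.11 ± 0.17, edgeR adjusted p = 0.00296). The fall was 1.99-fold against PD-901 (-0.99 ± 0.17, adjusted p = 0.00446) and 1.84-fold against 5-azacitidine (-0.88 ± 0.17, adjusted p = 0.0303).

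Klf4, which takes part in monocyte differentiation, read 76.9, 99.9 and 138 CPM in vehicle mice and 82.6, 73.3 and 106 CPM with PD-901. With 5-azacitidine it read 58.2, 72.0 and 44.0 CPM, and with the combination 53.6, 77.9 and 38.7 CPM. Both groups that received 5-azacitidine lay low, and only combination mouse 2 reached into the range of vehicle. The combination was 1.85-fold lower than vehicle (log2 change -0.89 ± 0.26, edgeR adjusted p = 0.0385). 5-azacitidine alone was 1.81-fold lower with no overlap, a log2 change of -0.86 ± 0.26 that missed the threshold (unadjusted p = 0.00583, edgeR adjusted p = 0.167). Between the combination and 5-azacitidine the log2 difference was -0.03 ± 0.26 (adjusted p = 0.976), and between the combination and PD-901 it was -0.62 ± 0.26 (adjusted p = 0.182). Without the low-count filter, edgeR called Klf4 with 5-azacitidine against vehicle (adjusted p = 0.00013) and in the combination against PD-901 (adjusted p = 0.00736), and the latter was also called without combination mouse 2 (adjusted p = 0.0422). Over all genes the unfiltered fit called 572 and 1756 in these 2 comparisons, against 1 and 1191 with the filter. Without combination mouse 2 the latter comparison called 1563 genes.

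Klf7, the remaining activator and a factor best known in neurons, read 24.5, 28.1 and 29.7 CPM in vehicle mice, and 10.99, 23.0 and 24.8 CPM with the combination. With PD-901 it read 18.8, 18.5 and 27.5 CPM and with 5-azacitidine 40.4, 18.7 and 14.96 CPM. Its highest and its second lowest value both came from 5-azacitidine mice, and no comparison passed the test (combination against vehicle, log2 change -0.49 ± 0.35, edgeR adjusted p = 0.413). A pair of unnamed genes on the opposite strand overlaps Klf7, 1 of them with 0 to 52 counts per library and the other with none, and the sources used here do not say whether reads were counted by strand.

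**Figure D2:**
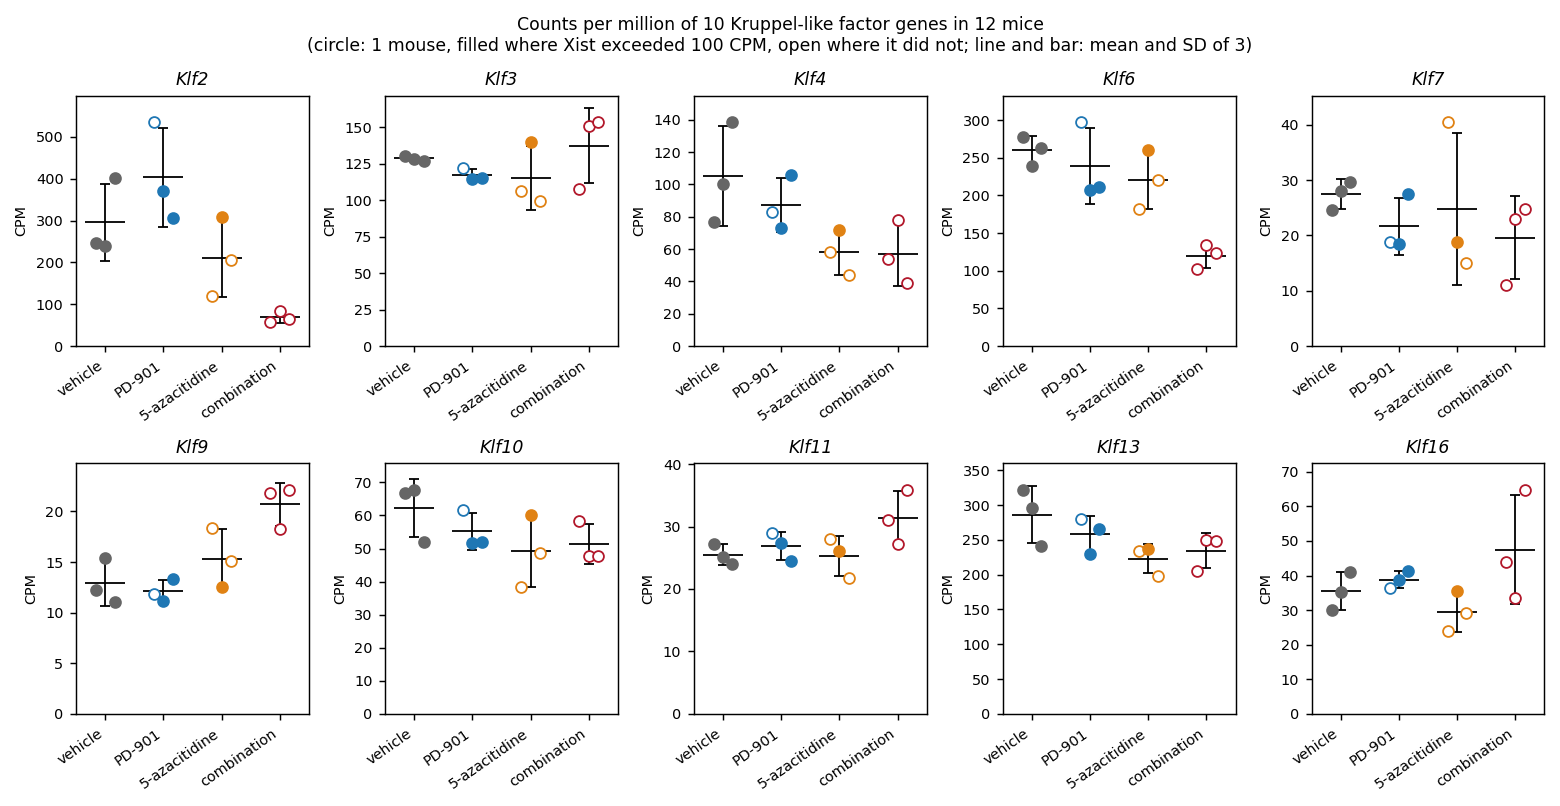
CPM of each of the 10 genes (y axis, from 0) in the 12 mice, by treatment group (x axis); a circle is 1 mouse, filled where Xist was above 100 CPM, and the line and bar are the mean and SD of 3. The 3 combination mice sit below the other 9 for Klf2 and Klf6, and above all vehicle and PD-901 mice for Klf9.

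Klf3, the CtBP-recruiting repressor known from B cell and fat cell development, had the smallest ratio of highest to lowest mouse among the 10. It read 130.4, 128 and 127 CPM in vehicle mice, 122, 114 and 115 CPM with PD-901, 106, 139.8 and 99.6 CPM with 5-azacitidine, and 107, 151 and 153 CPM with the combination. The vehicle and PD-901 ranges did not overlap, but the log2 difference was only -0.14 ± 0.15 (edgeR adjusted p = 0.974). The combination and vehicle differed by 0.09 ± 0.15 on the log2 scale (adjusted p = 0.781). A gene model on the same strand, C230096K16Rik, overlaps Klf3 with 31 to 252 counts per library, and another on the opposite strand, Gm20033, with 0 to 92.

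Klf9, a Sin3A-recruiting factor, was the member that moved up. It read 12.3, 15.4 and 11.01 CPM in vehicle mice and 11.8, 11.2 and 13.3 CPM with PD-901. With 5-azacitidine it read 18.3, 12.5 and 15.1 CPM, and with the combination 21.8, 18.3 and 22.1 CPM. The combination mice were above all vehicle and PD-901 mice, and combination mouse 2 and 5-azacitidine mouse 1 were level. Klf9 rose 1.61-fold from vehicle to the combination (log2 change 0.68 ± 0.20, edgeR adjusted p = 0.0362) and 1.71-fold from PD-901 to the combination (0.77 ± 0.20, adjusted p = 0.0330). Against 5-azacitidine the log2 difference was 0.44 ± 0.20 (adjusted p = 0.310). Without the low-count filter the rise against vehicle missed the threshold (edgeR adjusted p = 0.0557). A microRNA gene within Klf9, Mir1192, had 0 to 9 counts per library.

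The other Sin3A-recruiting factors did not pass the test in any comparison. Klf10, which TGF-beta induces, read 66.9, 67.6 and 52.0 CPM in vehicle mice and 58.5, 47.8 and 47.8 CPM with the combination. Its PD-901 mice were at 51.7 to 61.7 CPM and its 5-azacitidine mice at 38.4 to 60.2 CPM. Klf11, a close relative of Klf10, read 27.3, 25.1 and 24.0 CPM in vehicle mice and 31.1, 27.1 and 35.8 CPM with the combination. The Klf11 groups overlapped by a narrow margin at combination mouse 2 (log2 change 0.30 ± 0.16, edgeR adjusted p = 0.242). Klf11 was at 24.5 to 28.9 CPM with PD-901 and at 21.7 to 28.0 CPM with 5-azacitidine.

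Klf13, which encodes a regulator of lymphocyte development and of the chemokine gene Ccl5, read 321, 295 and 241 CPM in vehicle mice. Gene models on the opposite strand that overlap it had 0 to 70 counts per library. It read 279, 229.6 and 265 CPM with PD-901, 234, 237 and 198 CPM with 5-azacitidine, and 205, 250.4 and 248 CPM with the combination. All 3 5-azacitidine mice were below all 3 vehicle mice, by a log2 change of -0.36 ± 0.14 that missed the threshold (unadjusted p = 0.0233, edgeR adjusted p = 0.251). Klf16, a GC-box-binding repressor, read 30.1, 35.2 and 41.0 CPM in vehicle mice, 36.3, 38.7 and 41.2 CPM with PD-901, 24.0, 35.6 and 29.1 CPM with 5-azacitidine, and 44.0, 33.6 and 64.7 CPM with the combination. Combination mouse 3 was the highest of the 12 for Klf16 and combination mouse 2 lay inside the vehicle range (combination against vehicle, log2 change 0.42 ± 0.21, edgeR adjusted p = 0.220). Its widest difference was between the combination and 5-azacitidine, at 0.68 ± 0.22 on the log2 scale with overlapping groups (unadjusted p = 0.00617, edgeR adjusted p = 0.121). That difference passed without the low-count filter (edgeR adjusted p = 0.0104) and without combination mouse 2 (adjusted p = 0.0267). Over all genes 986 and 735 were called in those fits, against 231 with the filter and all 12 mice.

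Neither drug alone changed a member past the threshold. With PD-901 the 10 log2 changes ran from -0.34 for Klf7 to 0.45 ± 0.31 for Klf2 (edgeR adjusted p = 0.960 for Klf2), with a median of -0.13. Of all 17475 genes, 0% passed the edgeR threshold for PD-901 against vehicle and 4.88% had an unadjusted p below 0.05, a level that 0 of the 10 members reached. DESeq2 called 5 genes and limma-voom 1 gene there, none of them a member. With 5-azacitidine 9 of the 10 changes were negative, with a median of -0.25, against 50.8% of changes negative and a median of -0.0092 over all genes. In that comparison 0.00572% of all genes, a single gene, passed, and 15.3% had an unadjusted p below 0.05, as did 2 of the 10 members, Klf4 and Klf13. DESeq2 called 479 genes and limma-voom 2, again with 0 members.

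Comparing the drugs directly, Klf2 was lower with 5-azacitidine than with PD-901 by 0.94 on the log2 scale (log2 change -0.94 ± 0.31, unadjusted p = 0.00959, edgeR adjusted p = 0.589), and Klf4 showed a log2 change of -0.59 ± 0.26 (unadjusted p = 0.0424, adjusted p = 0.667). Neither passed. edgeR called 0% of all genes in that comparison, and 7.3% of genes and 2 of 10 members had an unadjusted p below 0.05. DESeq2 called 42 genes and limma-voom 0, with 0 members by either.

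In the combination against vehicle, 4 of the 10 members passed: Klf2, Klf4 and Klf6 fell and Klf9 rose. Among all genes 7.97% fell and 5.78% rose. The median log2 change was -0.28 over the 10 members and 0.01 over all genes. Against PD-901, Klf2 and Klf6 fell and Klf9 rose, where 5.12% of all genes fell and 1.69% rose. Against 5-azacitidine, Klf2 and Klf6 fell and 0 members rose, where 1.07% of all genes fell and 0.252% rose. These 3 comparisons share the combination mice, so a gene's falls are not independent of each other. A joint test of any difference among the 4 groups called Klf2 (edgeR adjusted p = 0.00865) and Klf6 (adjusted p = 0.0107), with 6.96% of all genes called.

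**Figure D3:**
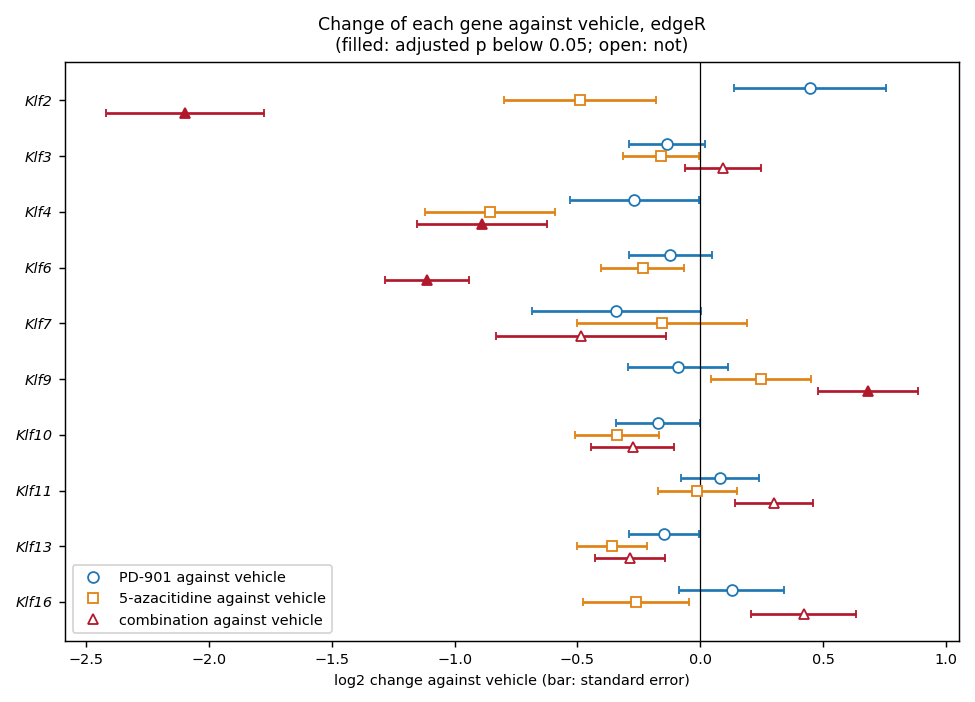
Log2 change of each gene (y axis) against vehicle for the 3 treatments (x axis: log2 change; bar: standard error; filled symbols: edgeR adjusted p below 0.05). For Klf2 and Klf6 the combination lies well to the left of both single drugs, whereas for Klf4 it lies beside 5-azacitidine.

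The sum of the single-drug changes of Klf2 was -0.04 on the log2 scale, against -2.10 for the combination. The departure from that sum, the interaction, was -2.06 ± 0.44 (unadjusted p = 0.000399, edgeR adjusted p = 0.134), and it did not pass. For Klf6 the sum was -0.36 against -1.11, an interaction of -0.76 ± 0.24 (unadjusted p = 0.00621, adjusted p = 0.265). For Klf4 the sum of -1.13 was below the combination's -0.89, and for Klf9 the sum was 0.16 against 0.68. edgeR called 0% of genes for the interaction, and 10.7% of genes and 2 of the 10 members had an unadjusted p below 0.05. DESeq2 called 274 genes, with Klf2 as the 1 member (log2 change -2.04, DESeq2 adjusted p = 0.000793), and limma-voom called 4 genes and 0 members. Without 5-azacitidine mouse 1, the lowest of its group in Klf2, edgeR called the Klf2 interaction as well (-2.34, adjusted p = 0.0169).

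The falls of Klf2 and Klf6 against vehicle stayed past the threshold whichever 1 of the 12 mice was left out, with edgeR adjusted p of 0.00104 to 0.0258 for Klf2 and 0.000823 to 0.0227 for Klf6. The Klf4 call held in 5 of these 12 fits and was lost without vehicle mouse 2 or 3, PD-901 mouse 1 or 2, 5-azacitidine mouse 1, or combination mouse 1 or 3 (adjusted p up to 0.151). The Klf9 call held in 7 and was lost without vehicle mouse 1 or 3, PD-901 mouse 2, or combination mouse 1 or 3 (adjusted p up to 0.131). Against PD-901 the Klf2 and Klf6 calls held in 12 of 12 fits, and the Klf9 call held in 7 and was lost without any 1 of the PD-901 mice or without combination mouse 1 or 3 (adjusted p up to 0.129). Against 5-azacitidine the Klf2 call held in 6 of 12 fits and was lost without vehicle mouse 2, PD-901 mouse 2, 5-azacitidine mouse 2 or 3, or combination mouse 1 or 3. The Klf6 call there held in 8 and was lost without 5-azacitidine mouse 2 or 3 or combination mouse 1 or 3. In the fits that lost Klf6, only 0 to 11 of all genes were called there.

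With sex read from Xist in the model, 0 of the 4 members passed against vehicle, and neither did any other gene (0 against 2403 over all genes without that term). Klf2 was then at -1.97 (edgeR adjusted p = 0.0638), Klf6 at -1.18 (adjusted p = 0.0578), Klf4 at -0.59 (adjusted p = 0.498) and Klf9 at 0.50 (adjusted p = 0.464) on the log2 scale. Against PD-901 in the same model Klf2 and Klf6 passed, and against 5-azacitidine Klf6 did, where 520 and 203 of all genes passed. Among mice with Xist at or below 100 CPM, Klf2 was at 534 CPM in the PD-901 mouse, 119 and 206 CPM in the 5-azacitidine mice and 58.4 to 83.3 CPM in the combination mice. Klf6 in the same mice was at 297 CPM, at 182 and 220.1 CPM, and at 102 to 134 CPM. Klf4 was at 82.6 CPM, at 44.0 and 58.2 CPM, and at 38.7 to 77.9 CPM, and Klf9 at 11.8 CPM, at 15.1 and 18.3 CPM, and at 18.3 to 22.1 CPM. In these mice the combination and 5-azacitidine did not overlap for Klf2 and Klf6 but did for Klf4 and Klf9. With 3 mice against 2, ranges can fail to overlap by chance, and the share of all genes that did so is not given here. Mice with Xist at or below 100 CPM included 1 PD-901 mouse and no vehicle mouse. The difference from vehicle therefore has no value within 1 Xist state.

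With log2 CPM of Lyz2 in the model, Klf2 (-1.90, edgeR adjusted p = 0.00870) and Klf6 (-1.06, adjusted p = 0.00770) passed against vehicle and Klf4 (adjusted p = 0.113) and Klf9 (adjusted p = 0.0684) did not. Against PD-901 only Klf2 then passed, and against 5-azacitidine 0 members did. Over all genes 1799 passed against vehicle in that model, 156 against PD-901 and 0 against 5-azacitidine. Leaving out the 4 mice low in Lyz2 leaves 1 vehicle and 1 combination mouse, whose spread is taken from the other groups, so only effect sizes are given. In that fit the log2 change of the combination against vehicle was -1.84 for Klf4, -2.61 for Klf2 and -1.09 for Klf6.

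**Figure D4:**
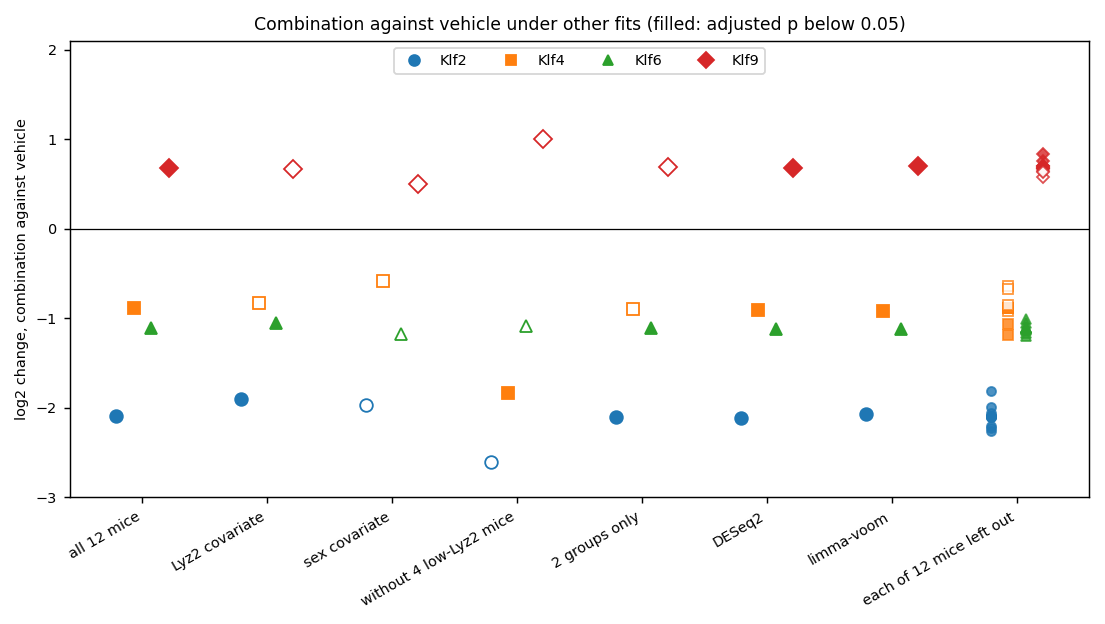
Log2 change of Klf2, Klf4, Klf6 and Klf9 between the combination and vehicle (y axis) under 7 fits and, at the right, with each of the 12 mice left out in turn (x axis); filled symbols have an adjusted p below 0.05. The direction of all 4 genes is the same in every fit shown, and the symbols of the sex covariate are all open.

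Other genes of the family and its pathways were taken from lists. Of the 7 Klf genes that are not members, Klf1, Klf5 and Klf8 had enough counts to test, and Klf1 rose in the combination (log2 change 1.09 ± 0.27, edgeR adjusted p = 0.0176). All 8 erythroid markers rose with it (median log2 change 1.46). The Sp factors, which bind the same GC boxes, had 5 tested members and 0 that passed (median -0.17). Of 11 cofactors and ubiquitin ligases of Kruppel-like factors, 0 passed (median 0.01).

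Of 12 genes listed for the ERK5 and MEF2 pathway, 4 fell and 0 rose in the combination against vehicle. All 12 changes were negative (median -0.41), and genes that promote or oppose the pathway were not told apart. With 5-azacitidine alone all 12 were negative too (median -0.46), and with PD-901 alone 11 were (median -0.19), with 0 called by either. Between the combination and 5-azacitidine the median was 0.01 with 0 called, and Klf2 was 3.05-fold lower. Between the combination and PD-901 the median was -0.11, with 2 genes called lower and 9 of 12 changes negative, and Klf2 was 5.84-fold lower. The part of this pathway in the change of Klf2 was not tested. In the combination against vehicle, Mapk7, which encodes ERK5 itself, fell by 1.23 on the log2 scale (SE 0.16, edgeR adjusted p = 0.00251). The MEF2 factor gene Mef2a fell by 0.73, the upstream kinase gene Map3k3 by 0.82 and the MEF2-binding deacetylase gene Hdac5 by 0.70. Of 11 TGF-beta signalling genes, a pathway that induces Klf10 and Klf11, 7 fell and all 11 changes were negative (median -0.61), with the receptor gene Tgfbr2 at -1.03 and the inhibitor gene Smad7 at -0.91. Klf10 and Klf11 themselves did not pass. In the glucocorticoid list, 1 of 7 genes fell, the kinase gene Sgk1 (-1.09, edgeR adjusted p = 0.00409). Tsc22d3, a standard reporter of glucocorticoid action, was at -0.37 ± 0.27 (adjusted p = 0.442). The part of glucocorticoids in the change of Klf9 was not tested.

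Among genes known as targets of KLF2 or KLF4, Itgb7, a gut-homing integrin subunit, fell in the combination against vehicle (log2 change -0.84, edgeR adjusted p = 0.0131), as did Thbd, the anticoagulant thrombomodulin (-1.02, adjusted p = 0.0265). Cdkn1a, the cell cycle inhibitor p21, was at 0.56 (adjusted p = 0.0948).

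Immediate early genes, which cells switch on within minutes of a stimulus, fell widely in the combination. Of 20 tested, 14 fell and 0 rose against vehicle (median -1.48), 14 fell against PD-901 and 4 against 5-azacitidine. The ERK phosphatase gene Dusp6 was at -2.66 ± 0.28 (edgeR adjusted p = 0.00208) and Dusp5 at -1.75 against vehicle. By the middle mouse of each group, the order in summed CPM of this list was that of Klf2, with 4428 to 7959 CPM in PD-901 mice, 3510 to 4038 in vehicle mice, 1962 to 4286 in 5-azacitidine mice and 1305 to 1719 in combination mice.

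By a rule of likeness, the root mean square difference of log2 CPM over the 12 mice after centring each gene, the nearest of 10061 genes to Klf2 were Zfp36 at 0.24, Nr4a1 and Fos both at 0.26. The Klf2 profile itself had an SD of 1.02. Zfp36, which encodes a protein that destabilises inflammatory mRNAs, read 720, 629 and 649 CPM in vehicle mice and 177, 262 and 177 CPM with the combination. It fell by 1.70 on the log2 scale (SE 0.29). For Klf6 the nearest were Sgk1 at 0.09, Crlf2, the receptor of the cytokine TSLP, at 0.12 and Sirpa, a receptor for CD47 on myeloid cells, at 0.13, against an SD of 0.47 for Klf6. Sirpa read 644, 555 and 578 CPM in vehicle mice and 277, 369 and 287 CPM with the combination. All these genes were picked by their likeness over the same 12 mice, so their falls in the combination are no separate result.

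**Figure D5:**
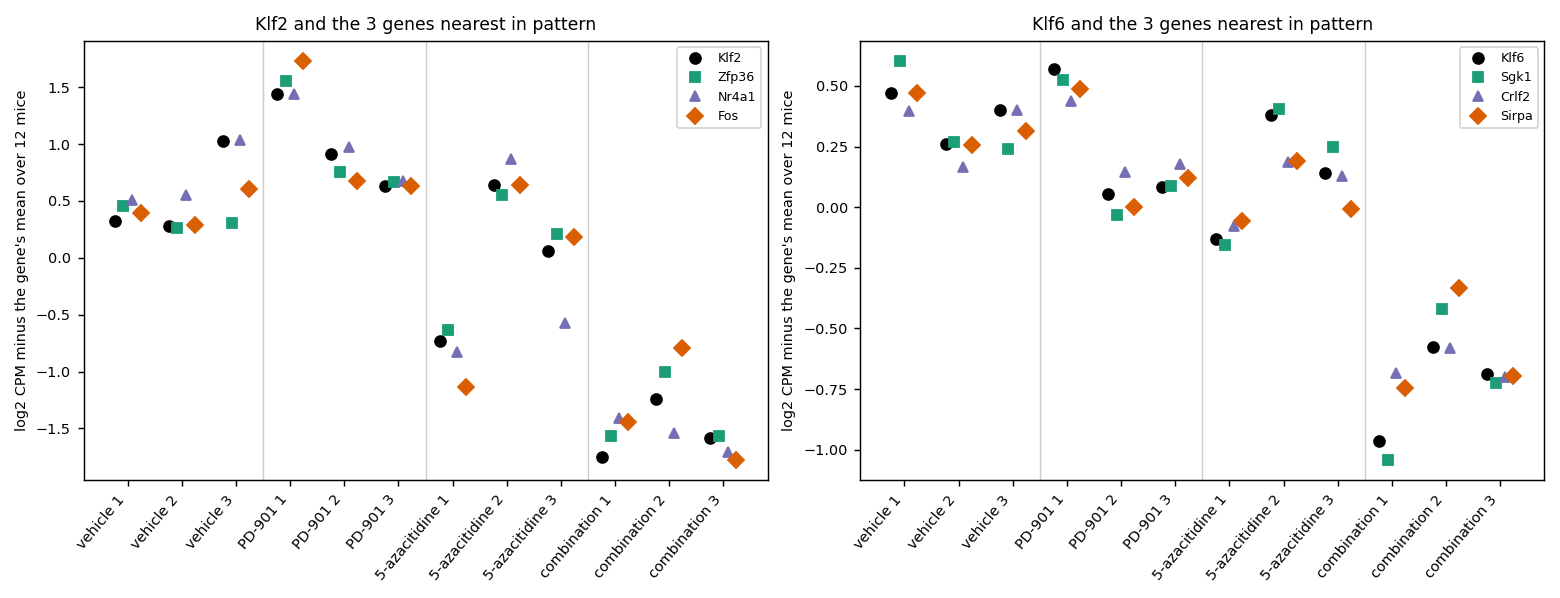
Log2 CPM of Klf2 (left) and Klf6 (right) and of the 3 genes nearest to each in pattern, less each gene's mean over the 12 mice (y axis), by mouse (x axis; grey lines part the groups). All 4 symbols lie below 0 in every combination mouse in both panels, and PD-901 mouse 1 is the highest mouse for Klf2 and for Klf6. The nearest genes were picked by their likeness over these 12 mice.

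Markers of cell types that express Kruppel-like factors also differed between the groups. Monocyte markers summed to 4131 to 5333 CPM in vehicle mice and 1906 to 3546 CPM in combination mice, and 7 of 11 fell (Csf1r, the receptor of the monocyte growth factor, at -1.26). Mature neutrophil markers fell in 6 of 10 genes and B lineage markers in 9 of 10, the latter from 412 to 446 CPM in vehicle mice to 90.5 to 218 CPM in combination mice. The median log2 change of B lineage markers against vehicle was -1.85 with the combination. It was 0.59 with PD-901 and -0.34 with 5-azacitidine, with 0 called by either. Dendritic cell markers fell in 7 of 8. Promyelocyte markers rose in 5 of 6, with Ctsg at 0.97.

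T and NK cell markers summed to 62.7 to 84.9 CPM in vehicle mice and 54.3 to 79.1 CPM in combination mice. Of these markers 1 of 10 fell (Ncr1), and 5 of the 10 changes were negative (median log2 change -0.01). Endothelial markers summed to 117 to 131 CPM in vehicle mice and 77.9 to 103 CPM in combination mice, with 1 of 6 falling (Cdh5, -1.11). Of stem and progenitor markers 1 of 7 fell (Gata2), but only 2 of the 7 changes were negative (median log2 change 0.18). Of stromal and bone markers 1 of 7 fell (Col1a1), with 3 of the 7 changes negative (median 0.02). No marker gene of these lists was at 0 in all mice. The part of these cell types in the changes of Klf2, Klf4, Klf6 and Klf9 was not tested.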

How the data were processed

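The values deposited by the authors are unnormalized read counts for each gene and mouse, with a length for each gene. Per the submitters' processing notes, bcl2fastq, STAR 2.7.2a, featureCounts and Subread 1.6.5 were used with genome build mm10. The sources used here do not give the annotation release or the strand setting. Identifiers were used as deposited, and coordinates of the 10 genes were checked against GENCODE M21.

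The tests used edgeR 4.0.16 under R 4.3.3. The filter filterByExpr (minimum count 10) left 17475 genes, and TMM gave scaling factors of 0.929 to 1.07. A quasi-likelihood model with 1 mean per group was fitted to all 12 libraries (8 residual degrees of freedom). Tests were two-sided, on all genes, with Benjamini-Hochberg adjustment over all genes of a comparison and a threshold of 0.05. Standard errors follow from the F statistic. CPM values carry the TMM scaling, and RPKM is CPM per kilobase of the deposited length. No pair of mice in a group agreed within sampling noise (chi-square 18.1 to 61.4 per degree of freedom), so each counted as 1 sample. The common biological coefficient of variation was 0.328. The test was tried on simulated counts before use.

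The members and all gene lists were chosen with earlier results of these data known. The text names all 10 members, up to 4 genes per list with the lowest p in the combination against vehicle, and the 3 genes nearest in pattern to each member called in the test of any difference. Fos, Nr4a1 and Zfp36 are both in the immediate early list and nearest to Klf2, and Sgk1 is both in the glucocorticoid list and nearest to Klf6. One gene of the list of KLF2 and KLF4 targets is not reported here. Genes that overlap a member were named after their counts were seen. Alternatives were DESeq2 size factors, no filter or a minimum count of 50, DESeq2 1.42.0, limma-voom (limma 3.58.1), only the groups compared, Lyz2 or Xist-read sex as a covariate, leaving out the 4 libraries low in Lyz2, and leaving out each library. Replicates are separate mice per the labels, and mouse numbers only name them.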

Additional observations from a re-analysis of the deposited data

How the results depend on the processing

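The falls of Klf2 and Klf6 and the rise of Klf9 against vehicle kept their direction under every alternative run, as did the fall of Klf4. Over the log2 changes of the 10 members, and of Klf2, Klf4, Klf6 and Klf9 alone for 5-azacitidine against PD-901 and for the interaction, 1122 values under an alternative kept direction and side of the threshold, 52 were no longer past it, 9 passed newly and 31 changed sign; the cause was not tested.

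The number of members called was 4 in the combination against vehicle, 3 against PD-901, 2 against 5-azacitidine and 2 for any difference. Over all genes the numbers called were 2403, 1191, 231 and 1217, and 1 for 5-azacitidine against vehicle. Without the low-count filter the number of members was 1 for 5-azacitidine against vehicle (Klf4) and 4 for any difference (572 and 2629 of all genes). In the combination it was 3 against vehicle (Klf9 lost), 4 against PD-901 (Klf4 gained) and 3 against 5-azacitidine (Klf16 gained). Over all genes these 3 comparisons then called 2685, 1756 and 986. DESeq2 called 1 for the interaction and 4 for any difference (274 and 2814 of all genes). By limma-voom 1 was called in the combination against 5-azacitidine (174 of all genes). With only the groups compared in the fit, 2 were called against vehicle and 0 against 5-azacitidine (2007 and 4 of all genes). With Lyz2 as a covariate these were 2 and 0, and 1 against PD-901 (1799, 0 and 156 of all genes). With Xist-read sex as a covariate 0 were called against vehicle, 1 against 5-azacitidine and 0 for any difference (0, 203 and 6 of all genes). Without the 4 libraries lowest in Lyz2, which leaves 1 vehicle and 1 combination mouse, numbers called are not given here. Leaving out 1 library gave 2 to 4 members against vehicle, 2 to 4 against PD-901, 0 to 3 against 5-azacitidine, 0 to 1 for the interaction and 0 to 4 for any difference. Over all genes, in the same order, these fits called 803 to 2730, 386 to 1563, 0 to 735, 0 to 150 and 4 to 1674. Any difference gave 0 members without combination mouse 1, where 4 of all genes were called.

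Sign changes were confined, among the alternatives run, to log2 values that were not called. With Lyz2 as a covariate Klf16 under PD-901 against vehicle was -0.087, Klf7 in the combination against PD-901 was 0.19, and in the combination against 5-azacitidine Klf4 was 0.081, Klf7 0.043 and Klf10 -0.10. With Xist-read sex as a covariate Klf4 in the latter was 0.084. Without the 4 low-Lyz2 libraries, PD-901 against vehicle gave 0.14 for Klf9, 0.095 for Klf10, 0.10 for Klf13 and -0.075 for Klf16, and Klf11 under 5-azacitidine against vehicle was 0.082. In the same fit Klf13 in the combination was 0.039 against vehicle and Klf7 was 0.19 against PD-901, with Klf7 at 0.0039 and Klf10 at -0.047 against 5-azacitidine.

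Leaving out 1 library gave ranges that crossed 0 for Klf9 under PD-901 against vehicle (-0.20 to 0.058), and for Klf7 (-0.70 to 0.094) and Klf11 (-0.092 to 0.079) under 5-azacitidine against vehicle. They also crossed it for Klf7 in the combination against PD-901 (-0.35 to 0.14), for Klf4 (-0.33 to 0.18), Klf7 (-0.58 to 0.22) and Klf10 (-0.087 to 0.25) in the combination against 5-azacitidine, for Klf6 in 5-azacitidine against PD-901 (-0.24 to 0.076), and for the Klf4 interaction (-0.065 to 0.45).

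With the length of the longest coding transcript, an alternative chosen after seeing the data, vehicle levels were 24.6 RPKM for Klf3, 20.4 for Klf10 and 44.7 for Klf13, so that Klf3 ranked above Klf10. Coding lengths of proteins were not used here. The lowest counts were those of Klf9 and Klf7, at 183 to 756 per library, where counting error weighs most. No paired analysis was possible because the labels give the mice no shared numbers.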
